A study of Mus musculus with 2 samples.

Results

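Class II-low LTi-like cells are described here: sorted small-intestinal lymphocytes with RNA of the lymphoid tissue inducer receptors Ccr6 or Cxcr5 and little RNA of the MHC class II invariant chain Cd74. A cell was counted as class II-low when its barcode had at least 500 genes and under 10% of its UMIs (unique molecular identifiers, 1 per captured transcript) from mitochondrial genes, and met 6 limits on single genes. The limits were at least 1 UMI of Ccr6 or Cxcr5, no UMI of Cd3e or Ncr1, fewer than 2 UMIs of Gata3, fewer than 2 of Cd74, and Il22 under 5% of the UMIs. Of 6466 barcodes that passed the cell filter, 319 met these limits, 83 in the WT library and 236 in the cKO library. The cells were thus chosen by the UMI counts of these 7 genes, whose values are given below as description only.

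The libraries were made from innate lymphoid cells (ILCs) sorted by flow cytometry from the small intestine of female C57BL/6 mice and labelled group 3 ILCs (ILC3s). WT mice carried floxed Batf alleles without a Cre (Batf fl/fl), and cKO mice carried the same floxed alleles with a Cre recombinase expressed from Plzf (Batf fl/fl Plzf cre+), the gene also called Zbtb16. Both groups therefore shared the floxed Batf, and only cKO mice carried the Cre, which acts in every lineage with a history of Plzf expression. The sources used here give neither age, number or pooling of the mice nor the sort gate and the exons between the loxP sites. Each genotype was 1 library, so genotype, mice, sort and library preparation cannot be told apart, no test between genotypes was possible, and every interval below (95%) covers counting error only.

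Lymphoid tissue inducer (LTi) cells are innate lymphocytes grouped with the ILC3s. They display lymphotoxin and RANKL, settle near B cells in the cryptopatches and lymphoid follicles of the gut through the chemokine receptors CCR6 and CXCR5, and make IL-22, a cytokine that acts on the epithelium. A part of the CCR6-positive ILC3s of the intestine displays peptides on MHC class II, and Cd74, the invariant chain, guides class II molecules through the cell. BATF belongs to the AP-1 family of leucine zipper factors; it binds DNA as a dimer with a JUN protein, often beside the factors IRF4 and IRF8.

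The WT library held 1153 barcodes and 3138009 UMIs, and the cKO library 6443 barcodes and 22004110 UMIs. The cell filter kept 736 and 5730 barcodes (63.8% and 88.9%). In the class II-low cells the median depth was 3178 UMIs in WT and 2647 in cKO, the median number of genes 1495 and 1306.5, and the median mitochondrial share 3.08% and 3.46%. Their UMIs summed to 243681 in WT and 666687 in cKO, so that 3 UMIs, the limit that a count of 0 allows, stood for 12.3 CPM (UMIs per 1000000 UMIs) in WT and 4.50 CPM in cKO. Among all barcodes 14 sequences occurred in both libraries, 9 of them in barcodes that were kept, and 1 class II-low cell of the cKO library had such a barcode.

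Batf itself was not lower in the class II-low cells of the library labelled cKO. It had 19 UMIs in 12 WT cells, 78.0 CPM (46.9 to 122), and 87 UMIs in 59 cKO cells, 130 CPM (105 to 161). The log2 ratio of cKO over WT was 0.74 (0.02 to 1.54). The gene lies at chr12:85686669-85709087 (mm10), and the 3′ tags counted here may fall outside the deleted part, so this reading checks neither the deletion nor the label. Zbtb16, whose promoter carries the Cre, was at 28.7 CPM in WT (7 UMIs) and 25.5 CPM in cKO (17 UMIs).

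Class II-low cells took a larger share of the WT library than of the cKO library. They were 83 of 736 kept barcodes in WT, 11.3% (9.08 to 13.8, Clopper-Pearson interval), and 236 of 5730 in cKO, 4.12% (3.62 to 4.67). Among the barcodes of ILC3 type, which are those with UMIs of ILC3 marker genes such as Il23r, no Cd3e and fewer than 2 UMIs of Gata3, counted together with the class II-low cells, the shares were 25.8% (83 of 322) and 7.57% (236 of 3118). Both shares rest on an unstated sort gate, and the cKO library held more cells of the other ILC3 types. Within the cells that met every limit but the one on Cd74, the class II-low share was 58.5% in WT (83 of 142, 49.9 to 66.7) and 64.3% in cKO (236 of 367, 59.2 to 69.2), and these intervals overlapped. The cells of the same gate with 2 or more UMIs of Cd74, here called class II-high cells, were 59 in WT and 131 in cKO.

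The limits cut continuous counts at low values. In WT, 75 class II-low cells had no UMI of Cd74 and 8 had 1 UMI, while just outside 8 cells had 2 UMIs and 9 had 3. In cKO the numbers were 208 and 28 inside, and 20 and 12 just outside. A single UMI of Ccr6 or Cxcr5 carried 38 of the 83 WT cells and 144 of the 236 cKO cells through the gate. Gata3 had 1 UMI in 10 WT and 35 cKO class II-low cells, and 3 WT and 11 cKO cells were just outside at 2 UMIs. The highest Il22 share inside was 4.75% in WT and 4.68% in cKO, and 6 WT and 53 cKO cells that met the other limits lay outside, from 5.21% and 5.28% upwards.

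The LTi label was checked against 12 marker genes, 3 of which (Ccr6, Cxcr5 and Il22) the limits had used. Il23r, a subunit of the receptor for IL-23, stood at 394 CPM in the WT class II-low cells and 280 (280.5) CPM in the cKO ones. Kit, the receptor for stem cell factor, stood at 542 and 415 CPM. Both genes were thus detected in both libraries, and a UMI of Il23r was present in 46 of 83 WT cells (55.4%) and 110 of 236 cKO cells (46.6%). Tnfsf11, which encodes RANKL, was at 1096 and 991 CPM, Ltb at 1145 and 843 CPM, Lta at 168 and 75.0 CPM, and Id2, the inhibitor of E proteins needed by all ILCs, at 1051 and 1647 CPM.

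Defining genes of several other cell types had no UMI or few in the class II-low cells. No UMI of Cd79a, Ms4a1, Igkc, Csf1r, Cdh5, Eomes, Gzma or Il1rl1 was found in either library, and Epcam had 0 and 3 UMIs, Il13 had 0 and 2 and Il5 had 0 and 1. Pecam1, an adhesion molecule of endothelial cells and some leukocytes, was found in 22 WT cells (26.5%) and 55 cKO cells (23.3%), and Cd79b, a chain of the B-cell receptor complex, in 7 (8.43%) and 16 (6.78%). Lck, a kinase of T cells and some ILCs, was found in 6 (7.23%) and 44 (18.6%), and Trac, a chain of the T-cell receptor, in 6 (7.23%) and 5 (2.12%). Cd3g, a chain of the T-cell receptor complex, had 0 UMIs in WT and 23 UMIs in 9 cells in cKO. Cd163l1, the scavenger receptor SCART1 of γδ T cells, had 0 UMIs in WT and 25 UMIs in 9 cells in cKO, and 1 cell had both genes. A UMI of Cd3d, Cd3g, Trdc or Cd163l1 was present in 3 WT cells (3.61%) and 17 cKO cells (7.20%). Cd3g and Cd163l1 are both among the genes counted as higher in cKO below, and their part in the other differences is given where counts are repeated without these cells.

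Ccr6 and Cxcr5 divided the class II-low cells into 3 sets whose proportions differed between the libraries. Cells with Ccr6 alone were 42 of 83 in WT (50.6%) and 94 of 236 in cKO (39.8%). Cells with Cxcr5 alone were 21 (25.3%) and 108 (45.8%), and cells with both were 20 (24.1%) and 34 (14.4%). After every cell had been thinned to 1200 UMIs, which left out 15 WT and 14 cKO cells, Ccr6 was found in 38.2% of WT and 32.9% of cKO cells and Cxcr5 in 19.1% and 28.8%. In 92 endothelial-marker barcodes of the cKO library, thinned in the same way and used as a background for free RNA, the shares were 1.09% and 0%. These barcodes had a median of 2364 UMIs before thinning, and WT held only 5 of them. Whether they transcribe a given gene themselves was not tested, so their shares for genes named below need not be free RNA.

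Cd4, the coreceptor that marks a subset of mouse LTi cells, had its lowest level in cells with Cxcr5 alone. It had only 29 UMIs in WT and 23 in cKO over all 3 sets, so the levels of single sets rest on few UMIs. In WT its level was 142 CPM in cells with Ccr6 alone, 13.5 CPM in cells with Cxcr5 alone and 202 CPM in cells with both. In cKO the same sets had 23.4, 9.70 and 139 CPM. Over all class II-low cells Cd4 was at 119 CPM in WT, in 14 cells (16.9%), and at 34.5 CPM in cKO, in 15 cells (6.36%), a log2 ratio of -1.79 (-2.64 to -0.95). This difference passed the size rule defined below. It no longer passed after thinning or with 2 or more UMIs of Ccr6 and Cxcr5 required. Nor did it pass under a stricter cell filter (-1.16) or without the cells carrying Cd3d, Cd3g, Trdc or Cd163l1 (-1.26). Nrp1, the neuropilin found on LTi cells, had its lowest value in cells with Cxcr5 alone, with 294, 162 and 217 CPM in WT and 250 (249.7), 116 and 298.5 CPM in cKO for Ccr6 alone, Cxcr5 alone and both. Ramp1, a subunit of the receptor for the neuropeptide CGRP, had the same order in both libraries: 257 CPM in WT and 103 CPM in cKO with Cxcr5 alone, 380 (379.8) and 199 CPM with Ccr6 alone, and 450.5 and 288.5 CPM with both.

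To describe the class II-low cells, their summed UMIs were compared with those of the other ILC3-type cells, 239 in WT and 2882 in cKO. Class II-low cells were shallower, with medians of 3178 UMIs in WT and 2647 in cKO, against 3469 and 3671.5 in the comparison group. That group also held class II-high cells of the same gate, which are compared alone further below. A gene was counted as higher or lower when it reached 20 CPM in 1 or both groups and its interval lay wholly beyond a 1.5-fold difference, which is called the size rule here. Of 5705 genes measured in both libraries, 28 (0.491%) were higher in the class II-low cells in both libraries and 46 (0.806%) were lower in both. The cells were chosen within the same libraries, so these values describe them and test nothing. The comparison group in WT contained 1 barcode of 28883 UMIs that supplied 576 of its 583 UMIs of epithelial markers, and without barcodes carrying markers of other cell types 25 genes were higher and 44 lower.

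**Figure D1:**
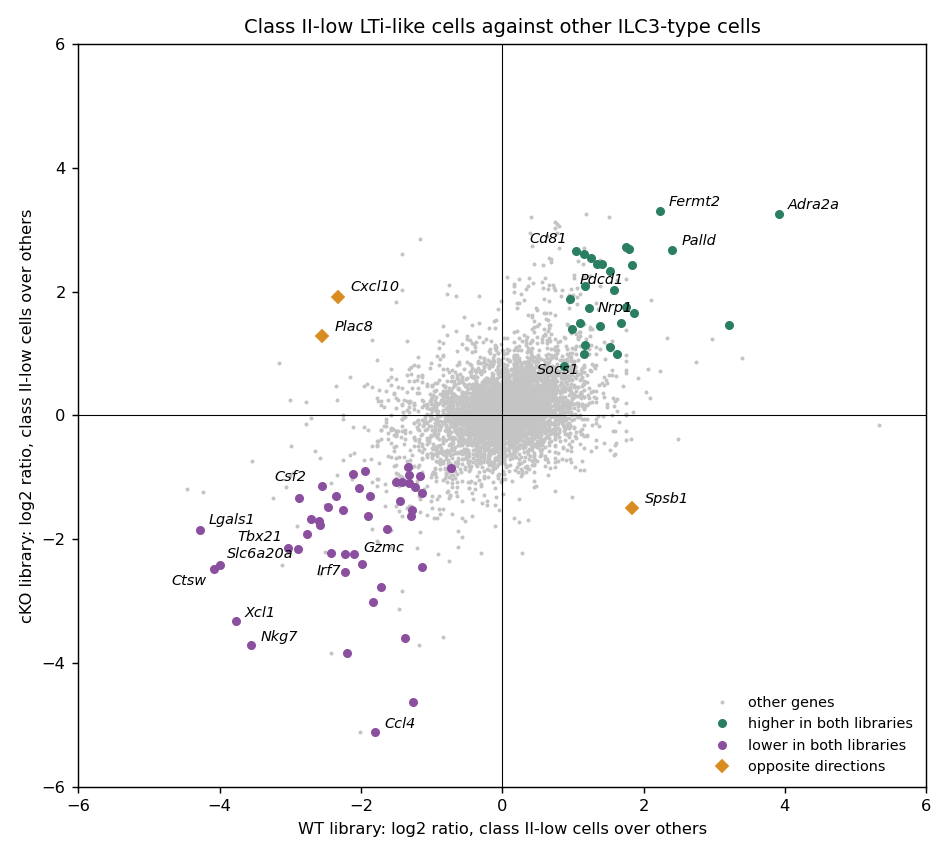
Each point is a gene, placed by its log2 ratio in class II-low LTi-like cells over other ILC3-type cells in the WT library (horizontal axis) and the cKO library (vertical axis), with counts of 0 set to 3 UMIs. Of 5705 genes, 28 passed the size rule upwards in both libraries (green), 46 downwards (purple), and Cxcl10, Plac8 and Spsb1 passed it in opposite directions (orange diamonds), Plac8 in WT through the UMIs of 1 comparison barcode.

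Among the genes higher in class II-low cells, Ret, the receptor tyrosine kinase for glial-derived neurotrophic factors, was at 378 CPM against 158 CPM in other ILC3-type cells in WT and at 313 against 53.6 CPM in cKO, log2 ratios of 1.26 and 2.55. Ramp1 was at 361 against 143 CPM in WT (1.33) and 168 against 30.7 CPM in cKO (2.45). Vipr2, a receptor for vasoactive intestinal peptide, had log2 ratios of 1.16 and 2.61. Adra2a, an adrenergic receptor, was at 36.9 against 2.45 CPM in WT and 40.5 against 4.25 CPM in cKO, but all 9 of its WT UMIs came from 1 cell. Nrp1, which binds semaphorins and VEGF, was at 234 against 100 CPM (1.22) and 195 against 58.8 CPM (1.73).

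Pdcd1, encoding the inhibitory receptor PD-1, was at 295 CPM in class II-low cells and 111 CPM in the others in WT (log2 ratio 1.41), and at 384 against 70.3 CPM in cKO (2.45). Cd81, a tetraspanin, was at 398 against 193 CPM (1.04) and 324 against 51.2 CPM (2.66). Bst2, the antiviral factor tetherin, was at 624 against 321 CPM (0.96) and 811 against 220 CPM (1.88). Socs1, a feedback inhibitor of cytokine signalling, was at 529 against 238 CPM (1.16) and 709 against 358 CPM (0.99). Bcl2, the survival factor, was at 369 against 187 CPM (0.98) and 226 against 85.9 CPM (1.40). In these examples the ratio was larger in cKO in all but Socs1, and 1549 of the 2882 comparison cells in cKO had a UMI of Ncr1, against 69 of 239 in WT. Several of the WT ratios did not pass the size rule under an alternative: those of Ramp1, Socs1 and Palld after thinning, those of Ret and Nrp1 when 2 UMIs of Ccr6 and Cxcr5 were required, and that of Ret against double-negative cells alone.

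Palld, encoding the actin-bundling protein palladin, was at 78.0 against 14.7 CPM in WT (2.41) and 184 against 29.0 CPM in cKO (2.67). Fermt2, encoding the integrin activator kindlin-2, had log2 ratios of 2.23 and 3.29, and Lmna, encoding lamin A and C, had 1.11 and 1.49. The WT ratio of Fermt2 no longer passed the size rule in 3 of 12 alternative settings, with a lowest value of 0.35. Ldhb, a subunit of lactate dehydrogenase, was at 172 against 60.0 CPM (1.52) and 165 against 32.9 CPM (2.33). Ddc, which makes dopamine and serotonin from their amino acid precursors, had ratios of 1.67 and 1.49, which no longer passed in 4 of 12 settings in WT (lowest 0.31) and 2 of 12 in cKO (lowest 0.68).

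The genes lower in class II-low cells included cytotoxic and type 1 genes. Of 14 such genes measured in both libraries, 8 were lower in both, beside 0.806% of all genes: Xcl1, Klrk1, Nkg7, Gzmb, Ccl3, Ccl4, Tbx21 and Ctsw. The median log2 ratio of the list was -2.01 in WT and -1.81 in cKO, beside medians of 0.06 and 0.07 over all genes. Tbx21, encoding the type 1 factor T-bet, was at 8.21 against 67.3 CPM in WT (-3.04) and 16.5 against 73.2 CPM in cKO (-2.15). Nkg7, a cytotoxic granule protein, was at 12.3 against 144 CPM (-3.55) and 13.5 against 177 CPM (-3.71). Ctsw, encoding cathepsin W, was at 16.4 against 277 CPM (-4.08) and 129 against 719 CPM (-2.48). Xcl1, the chemokine for cross-presenting dendritic cells, had no UMI in WT class II-low cells against 168 CPM in the others and 7.50 against 75.1 CPM in cKO. The rule required cells without Ncr1, the marker of the ILC3s that make several of these genes, so the list is not independent of it.

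Csf2, encoding GM-CSF, was lower as well, at 209 against 1230 CPM in WT (-2.56) and 228 against 503 CPM in cKO (-1.14). Cxcr6, a receptor for a chemokine of myeloid and epithelial cells, was at 472 against 1061 CPM (-1.17) and 829 against 1638 CPM (-0.98). Gzmc, encoding granzyme C, was at 49.2 against 211 CPM (-2.10) and 46.5 against 218.5 CPM (-2.23). Irf7, a regulator of interferon genes, was at 28.7 against 154 CPM (-2.42) and 117 against 549 CPM (-2.23), so that it was lower in class II-low cells in both libraries.

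In each library alone, 1.02% of the genes were higher and 1.71% lower in class II-low cells in WT, and 3.96% and 2.49% in cKO. Cxcl10 passed the rule in opposite directions, at 53.3 against 268 CPM in WT (-2.33, -3.26 to -1.53) and at 727 against 192 CPM in cKO (1.92, 1.77 to 2.06). Plac8 did the same, at 28.7 against 168 CPM in WT (-2.55) and 145 (145.5) against 60.0 CPM in cKO (1.28), but 101 of its 137 WT UMIs in other ILC3-type cells came from the barcode of 28883 UMIs, without which the WT level was 45.7 CPM and the ratio did not pass (-0.67, -2.08 to 0.52). Spsb1, an adaptor of a ubiquitin ligase, went the other way, at 65.7 against 18.4 CPM in WT (1.84) and 28.5 against 80.5 CPM in cKO (-1.50).

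Against the nearest population, the class II-high cells of the same gate, few genes passed the size rule. These cells summed to only 207409 UMIs in WT and 410599 in cKO. Fewer UMIs widen the intervals, so a low count of genes is no measure of likeness. Of 5738 genes measured in both libraries, 8 were higher (0.139%) and 15 lower (0.261%) in both. Class II genes followed the Cd74 limit: H2-Aa was at 61.6 against 1610 CPM in WT and 54.0 against 1520 CPM in cKO, and H2-Eb1 at 36.9 against 1186 CPM and 19.5 against 981 CPM. Cd83, a membrane protein of activated antigen-presenting cells that stabilises surface class II, was at 1802 against 4976 CPM in WT (-1.47, -1.63 to -1.30) and 430 (430.5) against 1140 (1139.8) CPM in cKO (-1.40, -1.62 to -1.19). Spi1, encoding the myeloid factor PU.1, had 1 UMI against 140 (139.8) CPM in WT (29 UMIs) and 0 against 29.2 CPM in cKO. Cd40, the costimulatory receptor, had 0 UMIs against 33.8 CPM and 6.00 against 31.7 CPM. Higher in class II-low cells were Arg1, encoding arginase 1, at 222 against 43.4 CPM (2.35) and 172.5 against 65.8 CPM (1.39), and Ramp3, a receptor partner for adrenomedullin, at 1063 against 395 CPM (1.43) and 1729 against 938 CPM (0.88).

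Several genes higher in class II-low cells than in the ILC3s as a whole did not separate them from class II-high cells. Nrp1 was at 234 against 217 CPM in WT (log2 ratio 0.11, -0.48 to 0.71) and Ramp1 at 361 against 342 CPM (0.08, -0.39 to 0.55). In cKO both were lower in class II-low cells without passing the size rule, with ratios of -0.68 (-1.04 to -0.31) and -0.67 (-1.07 to -0.28). Pdcd1 was higher in class II-low cells in WT, 295 against 91.6 CPM (1.69, 0.94 to 2.50), but not in cKO, 384 against 487 CPM (-0.34, -0.62 to -0.07).

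Larger numbers of genes passed the size rule against Ncr1-positive cells without Ccr6 or Cxcr5 (85 in WT, 1743 in cKO). These cells summed to more UMIs than the class II-high cells, 323424 in WT and 6721155 in cKO, so the counts of genes are not comparable. Here 139 genes (2.43%) were higher and 95 (1.66%) lower in both libraries, of 5712. Ltb was at 1145 against 553 CPM in WT (1.05) and 843 against 309 CPM in cKO (1.45), and Odc1, the first enzyme of polyamine synthesis, at 4498 against 1660 (1660.4) CPM (1.44) and 2109 against 183 CPM (3.53). Against ILC3-type cells with none of Ccr6, Cxcr5 and Ncr1 (88 in WT, 976 in cKO), 48 genes (0.842%) were higher and 43 (0.754%) lower, of 5700. Ccr7, the receptor that guides cells to lymph nodes, was the farthest of the homing receptors, at 119 CPM against 1 UMI in WT (5.02, 2.42 to 10.37) and 70.5 against 4.01 CPM in cKO (4.13, 3.22 to 5.14), but 20 of its 29 WT UMIs came from 1 cell. Foxs1, a forkhead factor, was at 189 against 58.9 CPM (1.68) and 139.5 against 20.1 CPM (2.80). Against all other kept barcodes, which also held ILC2-type and other cells, 142 genes (2.51%) were higher and 87 (1.54%) lower, of 5655.

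Between genotypes, the class II-low cells of the cKO library had higher levels of interferon-response genes and lower levels of immediate early genes and of the inducible heat-shock genes Hspa1a and Hspa1b. Of 6710 genes measured, 57 (0.849%) were higher in cKO under the size rule and 97 (1.45%) were lower, and the median log2 ratio of all genes was -0.11. Higher genes were 37.0% of those counted with totals as the scale, and 56.4% after median-of-ratios scaling, which moved every log2 ratio by 0.13. Without the cells that had a UMI of Cd3d, Cd3g, Trdc or Cd163l1, 55 genes were higher and 87 lower. Cells with Trac or Lck but none of these genes stayed in.

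**Figure D2:**
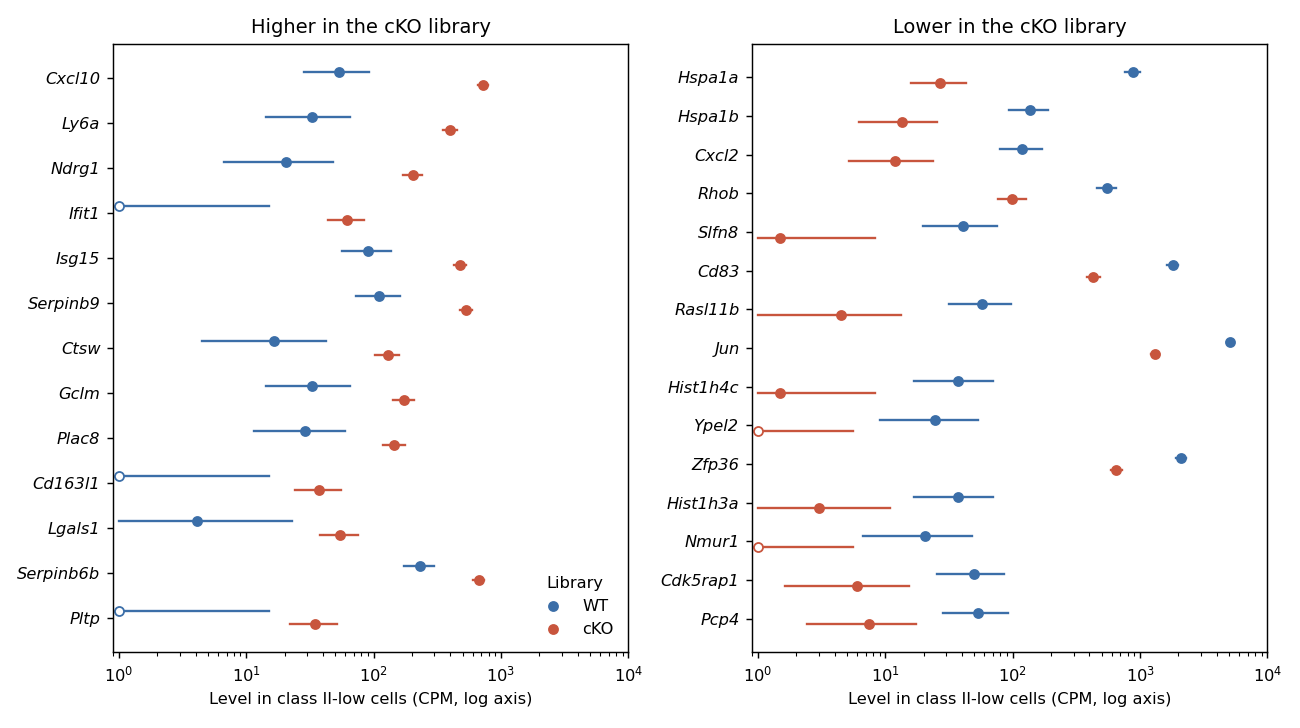
Levels in CPM (log axis) with exact Poisson intervals in class II-low cells of the WT (blue) and cKO (red) libraries, for genes among the 15 in each direction whose interval lay farthest from no change. Open circles at the left edge stand for 0 UMIs; Cxcl10 was at 53.3 CPM in WT and 727 CPM in cKO, and Hspa1a at 874 and 27.0 CPM.

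Of 23 interferon-response genes, 18 were measured, 5 were higher in cKO, with Isg15, Irf7, Ly6a and Ifit1 among them, beside 0.849% of all genes, and none was lower. The median log2 ratio was 1.18, and 16 of the 18 ratios were above 0. Isg15, a ubiquitin-like protein induced by interferon, was at 90.3 CPM in WT and 480 (479.98) CPM in cKO, a log2 ratio of 2.41 (1.79 to 3.11), in 16.9% and 38.1% of cells. Ly6a, the surface antigen Sca-1, was at 32.8 and 397 CPM (3.60, 2.60 to 4.83), in 4.82% and 25.8% of cells. Both genes thus had more UMIs and more positive cells in cKO. Irf7 was at 28.7 and 117 CPM (2.03, 0.92 to 3.39). Ifit1, which binds viral RNA, had no UMI in WT and 41 UMIs in 12 cells in cKO (61.5 CPM), at least 5.0-fold higher against a floor of 3 UMIs in WT. Irf7 and Ifit1 did not pass the size rule after thinning, and Ifit1 did not with 2 UMIs of Ccr6 and Cxcr5 required.

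Members of the list that did not pass had values such as 16.4 and 55.5 CPM for Gbp2, a guanylate-binding protein (1.76, 0.28 to 3.71), 12.3 and 25.5 CPM for Stat2 (1.05, -0.74 to 3.46), and 624 and 811 CPM for Bst2 (0.38, 0.12 to 0.65). The lowest ratio was that of Ifi203, at 90.3 and 72.0 CPM (-0.33, -1.08 to 0.47). Per cell, the summed level of the list had a median of 5685 CPM in WT, with quartiles of 3861 and 7513, and 7692 CPM in cKO, with quartiles of 5992 and 10105. The cells of both libraries overlapped over most of this range.

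Cxcl10, a chemokine that draws CXCR3-positive lymphocytes and is itself an interferon target, had the interval farthest from no change among the genes higher in cKO. It was at 53.3 CPM in WT (28.4 to 91.2) and 727 CPM in cKO (664 to 795), a log2 ratio of 3.77 (2.98 to 4.69). Its UMIs sat in few cells: 13 UMIs in 9 cells (10.8%) in WT, and 485 UMIs in 47 cells (19.9%) in cKO, where 1 cell held 94 of them (19.4%) and 5 cells held 57.9%. Without the cell with most Cxcl10 UMIs in each library the ratio was 3.98. After thinning, 2.94% of WT cells (0.358 to 10.2) and 14.0% of cKO cells (9.69 to 19.2) had a UMI, beside 7.61% of cKO endothelial-marker barcodes.

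The cKO cells with Cxcl10 had more RNA of some interferon genes than those without it, but not of all. In the 47 cells with Cxcl10, Isg15 was at 1469 CPM (1273 to 1688), against 226 CPM (188 to 270) in the 189 cells without it. Ifit1 was at 272 CPM (191 to 375) against 7.54 CPM. Irf7 was at 73.5 against 128 CPM, Ly6a at 500 (499.6) against 371 CPM, and Plac8 at 132 against 149 CPM. Isg15 and Ifit1 were thus higher beside Cxcl10, Ly6a was higher with overlapping intervals (388 to 633 and 321 to 427), and Irf7 and Plac8 were not higher. The 37 Ifit1 UMIs beside Cxcl10 came from 8 cells, and 1 cell held 12 of them. The median depth was 2850 UMIs with Cxcl10 and 2628 without it. Cxcl10 was also spread over the gate unevenly in cKO, at 690.5 CPM in cells with Ccr6 alone, 926 CPM with Cxcr5 alone and 209 CPM with both.

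The promoters of 3 of these genes and of Hspa1a are shown, with letters that match textbook elements for interferon and heat stress marked. Sequences are the 250 bases before the start of each gene on its own strand, from RefSeq for GRCm38.p6. Capitals in the first 3 mark GAAA, any 2 bases and GAAA on either strand, the core of the interferon-stimulated response element (ISRE), and in Hspa1a they mark GAA, any 2 bases and TTC, a core of the heat-shock element (HSE).
Cxcl10, chr5:92348890-92349139, minus strand: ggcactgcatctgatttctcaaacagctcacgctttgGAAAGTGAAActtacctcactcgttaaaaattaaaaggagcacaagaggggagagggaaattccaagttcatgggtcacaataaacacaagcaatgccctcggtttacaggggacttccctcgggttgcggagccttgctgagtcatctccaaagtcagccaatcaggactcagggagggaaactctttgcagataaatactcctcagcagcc
Isg15, chr4:156200819-156201068, minus strand: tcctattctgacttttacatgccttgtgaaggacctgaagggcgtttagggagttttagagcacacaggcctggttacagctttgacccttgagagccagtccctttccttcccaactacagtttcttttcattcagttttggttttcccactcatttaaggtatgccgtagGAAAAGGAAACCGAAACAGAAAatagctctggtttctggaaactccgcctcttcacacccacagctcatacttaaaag
Ifit1, chr19:34640639-34640888, plus strand: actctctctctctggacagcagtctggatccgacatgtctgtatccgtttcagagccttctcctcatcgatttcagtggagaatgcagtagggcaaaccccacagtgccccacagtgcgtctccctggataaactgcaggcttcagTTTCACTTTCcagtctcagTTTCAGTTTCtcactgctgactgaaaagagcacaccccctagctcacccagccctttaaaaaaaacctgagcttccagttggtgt
Hspa1a, chr17:34972157-34972406, minus strand: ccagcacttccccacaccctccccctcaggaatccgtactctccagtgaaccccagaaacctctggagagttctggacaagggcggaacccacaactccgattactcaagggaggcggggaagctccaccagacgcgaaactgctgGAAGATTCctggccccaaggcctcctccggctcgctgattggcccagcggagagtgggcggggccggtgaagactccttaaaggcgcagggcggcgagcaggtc

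In Cxcl10 the match began 213 bases before the start. Isg15 had 3 overlapping matches between 78 and 66 bases before it, and Ifit1 had 2, at 104 and 85. Among the genes with a promoter in the table, the ISRE core was found in 6 of 40 higher genes (15%), which were Cytip, Isg15, Cxcl10, Srgn, Serpinb9 and Ifit1, in 4 of 76 lower genes (5.26%), and in 182 of 5321 genes measured (3.42%). This element was added after the values had been seen. The HSE core was found in 7.50% of the higher and 6.58% of the lower genes, beside 5.58% of the genes measured. TGANTCA (both strands), the AP-1 site that BATF and JUN pairs bind, was found in 10.0% of the higher and 6.58% of the lower genes, beside 5.11% of the genes measured. A match describes letters only, and none of these shares was tested.

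Further genes higher in cKO had other known roles. Serpinb9, an inhibitor of granzyme B that protects lymphocytes, was at 111 CPM in WT and 531 CPM in cKO (2.26, 1.70 to 2.88), in 16.9% and 43.6% of cells. Serpinb6b, another intracellular serpin, was at 230 (229.8) and 666 CPM (1.54, 1.13 to 1.96). Ndrg1, induced by hypoxia and iron depletion, had 5 UMIs in 3 cells in WT (20.5 CPM) and 136 UMIs in 30 cells in cKO (204 CPM; 3.31, 2.06 to 4.96). Plac8, a small cysteine-rich protein, was at 28.7 and 145 (145.5) CPM (2.34, 1.24 to 3.69), which did not pass with 2 UMIs of Ccr6 and Cxcr5 required (1.70). Ctsw was at 16.4 and 129 CPM (2.97, 1.57 to 4.88) and did not pass after thinning. Lgals1, encoding galectin 1, had 1 UMI in WT and 36 in cKO (3.72, 1.15 to 9.06). Pltp, encoding a phospholipid transfer protein, and Cd163l1 had no UMI in WT and 23 and 25 UMIs in cKO, and neither passed without the cell holding most of its UMIs.

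**Figure D3:**
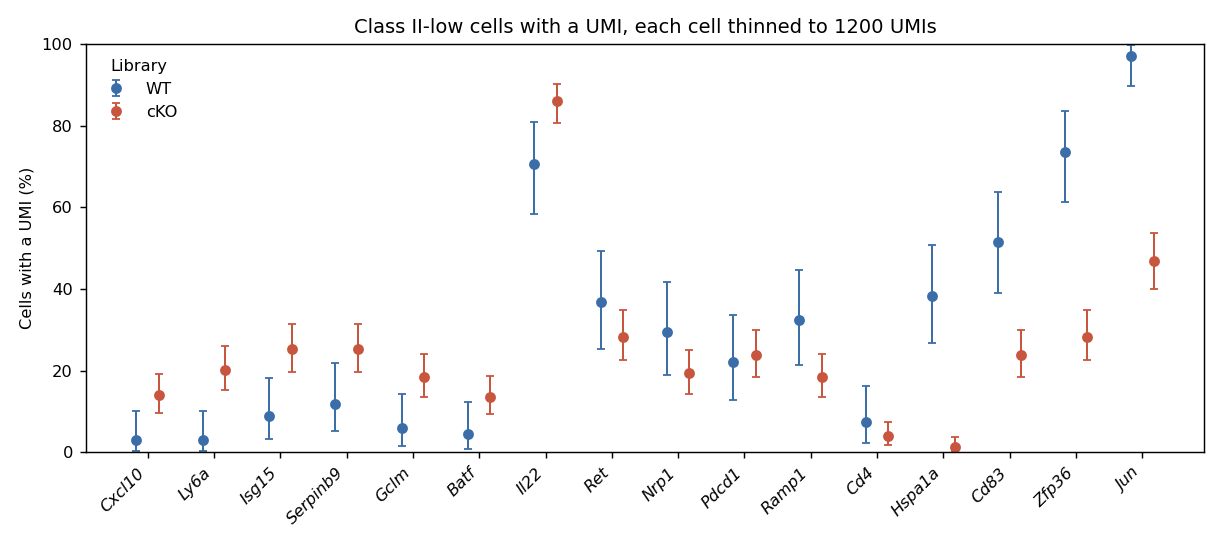
Share of class II-low cells with at least 1 UMI of each gene (percent) in the WT and cKO libraries after every cell was thinned to 1200 UMIs, with exact Clopper-Pearson intervals (68 WT and 222 cKO cells). Hspa1a was found in 38.2% of WT and 1.35% of cKO cells, and Ly6a in 2.94% and 20.3%.

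Hspa1a and Hspa1b, which encode the inducible chaperone HSP70, were the genes most clearly lower in cKO. Hspa1a was at 874 CPM in WT (761 to 999.7) and 27.0 CPM in cKO (16.0 to 42.7), a log2 ratio of -5.02 (-5.80 to -4.32), with UMIs in 36.1% of WT and 2.54% of cKO cells. Hspa1b was at 135 and 13.5 CPM (-3.33, -4.58 to -2.23). These genes are near-identical copies at chr17:34969190-34972156 and chr17:34956436-34959238, and their promoters agree at 247 of 250 bases, so reads may have been split between them or set aside. In WT the 30 cells with Hspa1a were uneven, and 5 of them held 34.7% of its UMIs. Its level in WT was 1320 (1319.8) CPM in cells with Ccr6 alone, 824.5 CPM with Cxcr5 alone and 202 CPM with both. After thinning, 38.2% of WT cells (26.7 to 50.8) and 1.35% of cKO cells (0.280 to 3.90) had a UMI. In the cKO endothelial-marker barcodes the share was 25.0%, above that of the cKO class II-low cells, so it gives no background for this gene.

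Most other chaperones did not pass the size rule. Of 15 heat-shock genes, all measured, 4 were lower (Hspa1a, Hspa1b, Bag3 and Dnajb1), beside 1.45% of all genes, and none was higher. Bag3, a cochaperone of HSP70, was at 201 and 64.5 CPM (-1.64), and Dnajb1, another cochaperone, at 300 (299.6) and 126 CPM (-1.25). Neither passed with 2 UMIs of Ccr6 and Cxcr5 required, and Dnajb1 did not after thinning or without its single highest cells. Hspa8, the constitutive HSP70, was at 1190 (1190.1) and 1242 CPM (0.06, -0.13 to 0.26), Hsp90ab1 at 1596 and 1576 CPM (-0.02, -0.19 to 0.15), and Hspa5, the chaperone of the endoplasmic reticulum, at 927 and 1144 CPM (0.30, 0.09 to 0.52). The list's median was -0.04, closer to 0 than the shift of 0.13 between the scalings, so its sign depends on them. Per cell, the summed list had medians of 6180 (6180.1) CPM in WT and 5739 CPM in cKO, and a 95th percentile of 18112 CPM in WT against 11275 CPM in cKO.

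Immediate early genes, which are transcribed within minutes of receptor or stress signals, were lower in cKO as a list. Of 30 genes, 25 were measured, 11 were lower (Atf3, Jun, Fosb, Zfp36, Gadd45b, Junb, Klf6, Fos, Nr4a1, Dusp1 and Egr1), beside 1.45% of all genes, and none was higher, with a median log2 ratio of -0.65. Jun, a partner of BATF, was at 5056 CPM in WT and 1311 CPM in cKO (-1.95, -2.07 to -1.82), in 95.2% and 73.3% of cells. Zfp36, whose protein tristetraprolin speeds the decay of cytokine mRNAs, was at 2105 and 651 CPM (-1.69, -1.88 to -1.51), in 84.3% and 40.7% of cells. Nr4a1, a nuclear receptor induced by antigen and stress signals, was at 5171 and 2073 CPM (-1.32). Jun and Zfp36 were thus detected in most WT cells and in a smaller share of cKO cells.

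The AP-1 genes differed in size. Junb was at 16214 and 9367 CPM (-0.79) and Fosb at 1564 and 735 CPM (-1.09). Fos had 2466 CPM in WT and 1381 CPM in cKO (-0.84), and Atf3 had 1830 and 990 (989.97) CPM (-0.89). Fosl2 was at 1424 and 945 CPM (-0.59, -0.78 to -0.40) and Maff at 439 and 418 CPM (-0.07, -0.40 to 0.27), neither past the size rule. Of the 25 measured immediate early genes, 5 had ratios above 0, with none past the size rule. The highest of these ratios was 2.80, with counts of 0 set to 3 UMIs. Klf4, at 213 and 304 CPM (0.51, 0.07 to 0.98), and Socs3, at 423 and 519 CPM (0.30, -0.03 to 0.63), were among them. Fos, Atf3 and Egr1 did not pass after thinning, and Fos and Fosb did not with 2 UMIs of Ccr6 and Cxcr5 required. Over all alternatives the call of Atf3 ended in 6 of 14 settings, with a ratio down to -0.49. The call of Fos ended in 3 of 14, and those of Egr1 and Fosb in 2 of 14 each. Among 15 measured genes of the BATF, IRF and AP-1 list, 5 were lower (Atf3, Jun, Fosb, Junb and Fos), beside 1.45% of all genes, and all of them are also immediate early genes. Batf3 was at 185 and 121 (121.5) CPM (-0.60) without passing.

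**Figure D4:**
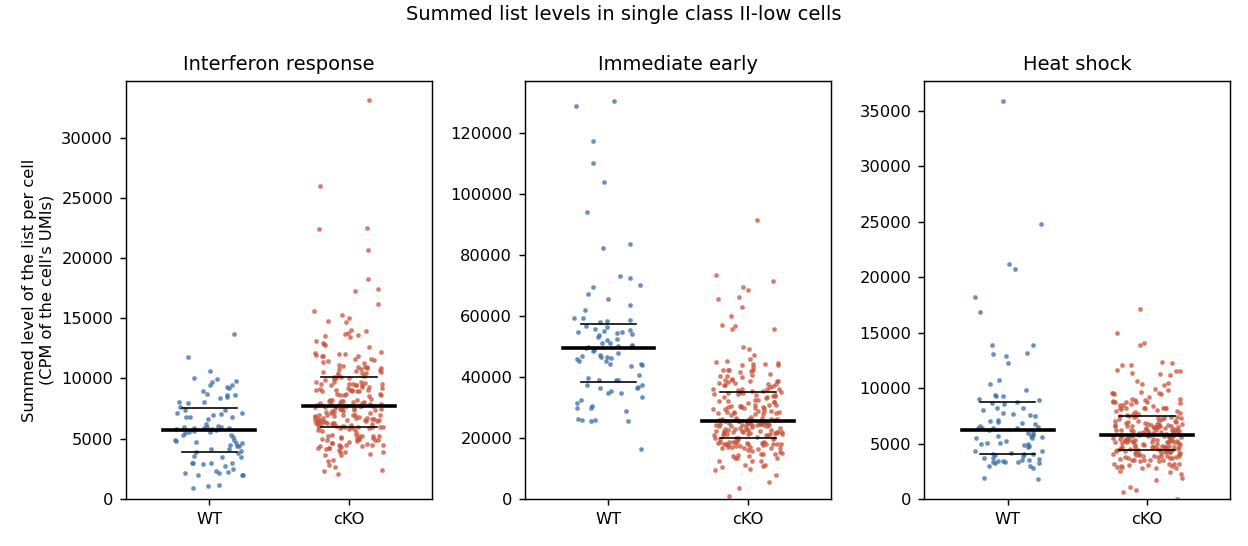
Summed level per class II-low cell (CPM of that cell's UMIs) of the interferon-response, immediate early and heat-shock lists, with 1 point per cell (83 WT, 236 cKO). Thick lines are medians and thin lines quartiles; the immediate early median was 49391 CPM in WT and 25533 CPM in cKO.

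Per cell, the summed immediate early list had a median of 49391 CPM in WT, with quartiles of 38266 and 57373, and 25533 CPM in cKO, with quartiles of 19968 and 35126. The lower quartile of WT thus lay above the upper quartile of cKO, although the ranges overlapped. The cKO class II-low cells also had fewer UMIs and a slightly higher mitochondrial share than the WT ones, as given above, and the part of depth or RNA quality in this difference was not tested.

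Cd83 was lower in cKO, at 1802 CPM in WT (1637 to 1978) and 430 (430.5) CPM in cKO (382 to 483), a log2 ratio of -2.07 (-2.29 to -1.85), with UMIs in 63.9% and 34.7% of cells. After thinning, 51.5% of WT and 23.9% of cKO cells had a UMI, beside 1.09% of the cKO endothelial-marker barcodes. Its level was higher in cells with Cd4 than without it in both libraries, at 2904 against 1583 CPM in WT and 721 against 410 (409.9) CPM in cKO. Rhob, a small GTPase of the endosome, was at 550 (549.9) CPM in WT and 99.0 CPM in cKO (-2.47, -2.92 to -2.04), in 59.0% and 21.2% of cells. Cxcl2, a neutrophil chemokine, was at 119 and 12.0 CPM (-3.31), but 17 of its 29 WT UMIs came from 1 cell. Slfn8, a Schlafen family gene, had 10 UMIs in 10 WT cells and 1 UMI in cKO (-4.77, -10.21 to -1.96). Rasl11b, a RAS-like GTPase, had 14 and 3 UMIs (-3.67, -6.11 to -1.83). Hist1h4c, Hist1h3a, Ypel2, Nmur1, Cdk5rap1 and Pcp4 were lower too, each with 13 or fewer WT UMIs, and 10 of the 13 Pcp4 UMIs came from 1 cell.

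Of 16 LTi-type genes, 14 were measured. Cd4 and Cd83 were lower, beside 1.45% of all genes, and Slc6a20a, a transporter, was higher, beside 0.849%, and the median log2 ratio was -0.45. Slc6a20a had no UMI in WT and 22 UMIs in cKO (33.0 CPM), and did not pass without its single highest cell. Ltb was at 1145 and 843 CPM (-0.44, -0.65 to -0.23), Lta at 168 and 75.0 CPM (-1.17, -1.79 to -0.53), and Tnfsf11 at 1096 and 991 CPM (-0.14, -0.35 to 0.07). Il23r had a ratio of -0.49 (-0.85 to -0.12) and Kit -0.38 (-0.69 to -0.07), neither past the size rule. Id2 was at 1051 and 1647 CPM (0.65, 0.45 to 0.85), and Tcf7, encoding the early ILC factor TCF-1, at 345 and 271 CPM (-0.34, -0.73 to 0.05). Of 27 ILC transcription factors, 21 were measured, and only Hes1, a Notch target, passed, at 69.8 and 21.0 CPM (-1.73). Its call ended in 6 of 14 alternative settings, among them the one without its single highest cells.

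Among 18 measured ILC3 effector and receptor genes, 3 were lower, beside 1.45% of all genes, and none was higher. Il7r, the receptor for IL-7, was at 1896 and 1110 (1109.97) CPM (-0.77), a call that ended in 5 of the 14 alternative settings, over all of which its ratio ran from -0.87 to -0.53. Hbegf, a growth factor for epithelium, was at 193 and 75.0 CPM (-1.36), and did not pass in 2 of 14 settings. Il17a was at 98.5 and 22.5 CPM (-2.13), but all 24 WT UMIs came from 1 cell, and the cKO UMIs from 3 cells. With Cd74 at 0 required, its ratio was 0.85, so the direction of Il17a rested on that cell. Il17f was at 131 and 204 CPM (0.64) without passing. Il22, whose upper limit chose the cells, was at 11080 (11080.1) and 13809 CPM (0.32). After thinning, 70.6% of WT and 86.0% of cKO cells had an Il22 UMI, beside 26.1% of cKO endothelial-marker barcodes, which should lack the gene. Il22 and its near copy Iltifb may share reads.

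Of the receptors higher in class II-low cells than in the other ILC3-type cells as a whole, few passed the size rule between the genotypes. Nrp1 and Ramp1 did not separate class II-low from class II-high cells, as given above. Pdcd1 was at 295 and 384 CPM (0.38), Ret at 378 and 313 CPM (-0.27), and Nrp1 at 234 and 195 CPM (-0.26), none past the size rule. After thinning, Pdcd1 was found in 22.1% of WT and 23.9% of cKO cells, Ret in 36.8% and 28.4%, and Nrp1 in 29.4% and 19.4%, beside 0%, 3.26% and 5.43% of cKO endothelial-marker barcodes. Ramp1 was lower in cKO, at 361 and 168 CPM (-1.10).

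MHC class I and redox genes had mostly positive ratios, with 1 gene of each list past the rule, beside 0.849% of all genes. Of 14 class I genes, all measured, 13 had ratios above 0 with a median of 0.48, and H2-Q7 passed at 529 and 990 (989.97) CPM (0.90, 0.63 to 1.19), though not after thinning. H2-K1 was at 3078 and 4407 CPM (0.52, 0.40 to 0.64) and B2m at 1687 and 2451 CPM (0.54), and class I genes are near-copies among which reads may be split. Of 5 class II genes measured none passed, with a median of -0.19. Of 17 measured glutathione, ferritin and NRF2 genes, 16 had ratios above 0 with a median of 0.60, and Gclm, the modifier subunit of glutamate-cysteine ligase, passed at 32.8 and 172 CPM (2.39, 1.37 to 3.64), in 7.23% and 34.7% of cells, though not after thinning. Fth1, the ferritin heavy chain, was at 2741 and 4155 CPM (0.60, 0.48 to 0.72).

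The remaining lists had at most 2 genes past the rule, beside the same background of 0.849% higher and 1.45% lower. Traf4, an adaptor of TNF receptors, was higher at 57.5 and 180 (179.995) CPM (1.65), a call that ended in 4 of 14 alternative settings (lowest 1.14), and the 9 measured genes of its list had a median of 0.51. Odc1 was lower at 4498 and 2109 CPM (-1.09) among 10 polyamine genes with a median of -0.04, whose sign depends on the scaling. Tnfaip3, the inhibitor A20, was lower at 2499 and 1387 CPM (-0.85) among 13 NF-κB genes with a median of 0.28, and did not pass after median-of-ratios scaling (-0.72). Gapdh was the only glycolytic gene of 15 that passed, at 513 and 252 CPM (-1.03), beside a list median of 0.08, and its call ended in 3 of 14 settings, down to -0.67. No homing receptor of 12 and no TNF ligand of 5 passed, with medians of -0.37 and -0.44.

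Single genes passed in the other functional lists. Il10rb, a subunit of the receptors for IL-10 and IL-22, had 11 UMIs in WT and 4 in cKO (-2.91) and was lower beside Il7r among 17 cytokine receptors, whose median was -0.26; its call ended after thinning (-0.71). Among 13 checkpoint and costimulatory genes (median -0.33) only Cd83 passed, and Icos, the inducible costimulator, was at 164 and 321 CPM (0.97) without passing. Bcl2a1b, a survival gene with near-identical copies, was at 65.7 and 19.5 CPM (-1.75) among 11 survival genes (median 0.13). Its call ended in 6 of 14 alternative settings. Atp5k, a subunit of ATP synthase, was at 139.5 and 55.5 CPM (-1.33) among 26 respiratory chain genes (median 0.15), a call that ended in 5 of 14. Both calls ended, among other settings, without the single highest cells. H2afz, a histone variant, was at 464 and 874 CPM (0.92) among 4 measured proliferation genes (median -0.01), a call that ended in 3 of 14 settings (lowest 0.82). Ctsw passed among 7 type 1 genes (median 0.65) and Ly6a among 5 type 2 genes (median -0.10).

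The cell type marker lists were summed in the class II-low cells. Stromal markers summed to 4.1 CPM in WT and 1.5 CPM in cKO, epithelial markers to 12.3 and 6.00 CPM, NK-cell or ILC1 markers to 12.3 and 18.0 CPM, B-cell markers to 41.0 and 33.0 CPM, and endothelial markers to 123 and 96.0 CPM. T-cell markers summed to 365 and 330 (329.99) CPM, ILC2 markers to 168 and 172.5 CPM, and NCR-type ILC3 markers to 57.5 and 159 CPM. The myeloid list, at 1625 and 1905 CPM, and the mast-cell list, at 550 (549.9) and 420 (419.99) CPM, contain Fcer1g and Kit, which ILC3s make. The part of other cell types in the differences between the libraries was not tested beyond the counts repeated without such cells. Of all marker lists only Cd3g and Cd4 passed the size rule.

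**Figure D5:**
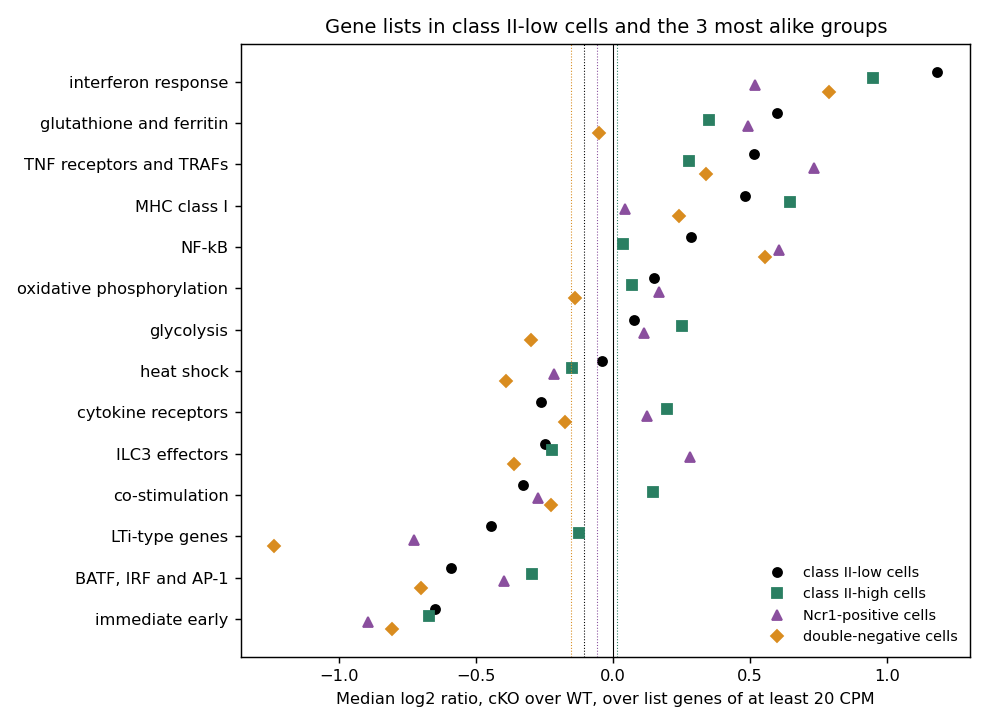
Median log2 ratio of cKO over WT for 14 gene lists (rows) in class II-low cells and 3 other ILC3 groups (symbols), with dotted lines at the median of all measured genes in each group. The interferon-response median was 1.18 in class II-low cells, 0.95 in class II-high, 0.52 in Ncr1-positive and 0.79 in double-negative cells.

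The same contrast in the other ILC3 groups of these libraries showed which differences were shared. The interferon list had a median log2 ratio of 1.18 in class II-low cells, 0.95 in class II-high cells, 0.52 in Ncr1-positive cells and 0.79 in the cells with none of Ccr6, Cxcr5 and Ncr1, called double-negative in the plot of list medians. The immediate early medians were -0.65, -0.67, -0.90 and -0.81 in the same order, so that the lower level in cKO was present in every group. Without the WT barcode of 28883 UMIs the double-negative medians were 0.62 and -0.93. Each group comes from the same pair of libraries, so agreement between groups is no independent repeat.

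For single genes, the difference between the log2 ratio in class II-low cells and that in another group was computed with its counting interval, here from a normal approximation. The ratio of Cxcl10 was above that in class II-high cells by 1.82 (0.93 to 2.71), where the gene went from 260 (260.4) to 1006 CPM, and above that in Ncr1-positive cells by 4.84 (3.98 to 5.70), where it went from 238 to 113 CPM. The ratio of Isg15 was above that in Ncr1-positive cells by 2.32 (1.62 to 3.02). The ratio of Ly6a was above that in Ncr1-positive cells by 2.71 (1.53 to 3.88), and its intervals against class II-high and double-negative cells spanned 0. That of Gclm spanned 0 against all 3 groups. For Isg15 the interval against double-negative cells spanned 0 (0.76, -0.08 to 1.6), and without the barcode of 28883 UMIs it did not (0.92, 0.08 to 1.76).

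Among the lower genes, the ratio of Hspa1a was below that in class II-high cells by a log2 difference of -1.96 (-2.91 to -1.0) and below that in Ncr1-positive cells by -1.79 (-2.52 to -1.06), while the interval against double-negative cells spanned 0 (0.63, -0.16 to 1.42). Jun, Zfp36 and Cd83 were less reduced in class II-low than in Ncr1-positive cells, by 0.44 (0.28 to 0.60), 1.47 (1.26 to 1.68) and 1.14 (0.81 to 1.47). Odc1 was less reduced than in Ncr1-positive cells by 2.09 (1.90 to 2.27). Against class II-high cells, Zfp36 and Odc1 were more reduced in class II-low cells, with differences of -0.36 (-0.62 to -0.10) and -0.45 (-0.61 to -0.28), and for Jun and Cd83 the intervals spanned 0. Il22, limited by the rule, had a lower ratio than in Ncr1-positive cells by -1.37 (-1.48 to -1.27). For Batf the intervals against all 3 groups spanned 0.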

How the data were processed

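Sorted small-intestinal ILCs were profiled by 10x Genomics 3′ single-cell RNA sequencing, 1 library per genotype. The values are whole-number UMI counts per gene and barcode as deposited by the authors. The submitters' processing notes name Cell Ranger and the build mm10, and the matrices give software version 3.0.0 per the file headers. The sources used here do not say how barcodes were called as cells. Gene positions and promoters came from the annotation and RefSeq tables for GRCm38, and 31011 of 31053 gene identifiers had a position.

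Barcodes with at least 500 genes and under 10% mitochondrial UMIs were kept. UMIs were summed over the cells of a group and library and given as CPM with exact Poisson intervals; ratios carry exact conditional binomial intervals, and shares Clopper-Pearson intervals, all at 95%. PCR duplicates were removed through the UMIs, and intervals and floors cover counting error only. The size rule required 20 CPM or more in either group and an interval beyond 1.5-fold. Differences between ratios carry intervals from a normal approximation. With 1 library per group no test, p-value or SD was possible. Genes at 0 were compared against a floor of 3 UMIs. The calculation was tested on simulated data. These were Poisson sums per group without variation between cells, so calls of genes concentrated in few cells were not tested. Scrublet called doublets in each library, which were removed only as an alternative.

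Named genes were the 15 in each direction whose interval lay farthest from no change in each of the 2 comparisons, mitochondrial, ribosomal and numbered models, Xist, Tsix and the rule genes left out, plus Batf, Zbtb16, the rule genes and up to 6 genes, or those needed to describe its role, from each of 34 lists (23 functional, 11 cell type markers). Cells and lists were chosen with earlier results of these data known. Cytip, Srgn, Spsb1 and the barcode of highest depth were named after their values were seen. Alternatives were the scaling, CPM minimum, denominator, depth per cell, doublets, cell filter and gate limits; leaving out cells with T-cell or other markers, without ILC3 genes, or with shared barcodes, or the cell with most UMIs of a gene, and other comparison groups, were chosen after seeing the data. Tools were Python 3.11.15, NumPy 2.4.6, SciPy 1.17.1, pandas 2.3.3 and Scanpy 1.11.5. Some genes among those named by the rule are not reported here.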

Additional observations from a re-analysis of the deposited data

Results flagged for a closer look

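Cxcl10 had opposite directions in cKO over WT in 2 cell groups, with a log2 ratio of 3.77 (2.98 to 4.69) in class II-low cells and -1.07 (-1.41 to -0.71) in Ncr1-positive cells, a difference of 4.84 (3.98 to 5.70, counting error only).

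Plac8 had a log2 ratio of cKO over WT of 2.34 in class II-low cells and -3.36 (-3.73 to -2.97) in double-negative cells, where it went from 405 to 39.5 CPM. In WT, 101 of the 110 Plac8 UMIs of double-negative cells came from 1 barcode of 28883 UMIs, which also held 576 of the 583 epithelial-marker UMIs of the other ILC3-type cells. Without it the double-negative level in WT was 37.0 CPM and the ratio 0.094 (-0.88 to 1.26), so the opposite direction rested on that barcode. Il17a had -2.13 in class II-low cells, where all 24 WT UMIs came from 1 cell, and a higher ratio in double-negative cells, with a difference of -4.93 (-7.15 to -2.71).

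In WT, Cxcl10 and Plac8 were lower in class II-low cells than in other ILC3-type cells, with log2 ratios of -2.33 and -2.55, and in cKO they were higher, with 1.92 and 1.28; the difference between the libraries was not tested. Without the same barcode the WT ratio of Plac8 was -0.67 (-2.08 to 0.52) and no longer passed the size rule, and that of Cxcl10 was -2.38.

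Barcodes that met the limits on the 7 genes but failed the cell filter numbered 39 of 417 in WT and 20 of 713 in cKO, and were not analysed further.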

How the results depend on the processing

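No paired analysis was possible because each group is 1 library, and for the same reason no replicate could be left out. Over 17 alternative settings, 1412 of 1563 values kept their side of the size rule, or moved little. Those that had passed the rule also kept their direction. Values that had not passed it were counted whatever their sign, such as Gata3, whose cKO over WT ratio ran from -0.30 to 0.91. Another 144 kept their direction but no longer passed, 5 single-gene means moved, and 2 that had passed reversed. This total includes settings that could hardly end a call, such as no CPM minimum, which left all 122 values the same. Most calls ended with at least 2 UMIs over Ccr6 and Cxcr5 (44 values, beside 73 the same) and with thinning (37, beside 75). Median-of-ratios scaling gave 88 genes higher in cKO, sharing 125 of the counted genes with the reported set, and 16 higher than in other ILC3-type cells. Thinning to 1200 UMIs gave 23 genes higher in cKO, and 12 higher and 21 lower than in other ILC3-type cells; fewer UMIs remained. With at least 2 UMIs over Ccr6 and Cxcr5, 31 genes were higher and 59 lower in cKO, and the class II-low share was 6.11% in WT and 1.61% in cKO; fewer cells remained. Without the limit on Il22 the cKO share was 5.04%. Of ILC3-type barcodes and class II-low cells the shares were 25.8% and 7.57%. Against double-negative cells alone 48 genes were higher. Il17a reversed to 0.85 with Cd74 at 0, which left out the WT cell that held its UMIs. Plac8 in double-negative cells reversed to 0.094 without the WT barcode of 28883 UMIs, a setting chosen after seeing the data. Some genes with few UMIs gave no value under thinning, because both groups were at or under 3 UMIs. Depth limited genes under 4.87 UMIs in WT and 13.3 in cKO, the counts that stand for 20 CPM.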
